A study of Mus musculus with 4 samples.

Results

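The miR-31 hairpin was followed through both of its strands, miR-31 and miR-31*, in Junb-deficient and wild type mouse embryonic fibroblasts (MEFs). These are 2 of the 710 mouse miRNAs on the array, found under the names mmu-miR-31 and mmu-miR-31*. They were chosen by their difference between Junb-/- and wild type clones on these same arrays, so their levels by genotype are given below as a description and without a test.

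miRNAs were measured in total RNA from 2 Junb-/- MEF clones and 2 wild type MEF clones, with 1 array per clone. MEFs are connective tissue cells grown from mouse embryos. All 4 clones came from embryos of embryonic day 9.5 on a mixed C57BL/6 × 129/Sv background, had been immortalized by the 3T3 protocol, and were cultured in DMEM with 10% serum under 8% CO2 at 37 °C. The study compared the genotypes to find miRNAs that depend on JUNB, one of the proteins that form AP-1 transcription factor dimers. The sources used here do not say whether each clone had its own embryo, and the spread between clones therefore speaks for these clones only. Junb mRNA cannot be checked, as the array holds probes for miRNAs alone.

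A miRNA gene is transcribed as a long precursor that is cut to a short hairpin and then to a duplex of both arms. Usually 1 arm, the guide, is loaded into an Argonaute protein and silences mRNAs through its seed, the bases 2 to 8, while the other arm, the passenger or star strand, is mostly degraded. As both arms come from the same hairpin, transcription sets their supply together, and the ratio of the arms depends on loading and decay. miR-31 is known to act on Prox1, the master transcription factor of lymphatic endothelial cells, in human endothelial cells, and on Myf5 in mouse muscle stem cells.

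The sequences are shown because the 2 strands are the objects measured and because they are partly complementary to each other. They are RefSeq sequences on GRCm38.p6, 5′ to 3′, with the seed in capitals in the mature strands and both mature strands in capitals in the hairpin. The array names miR-31 and miR-31* were matched to the 5p and 3p strands of RefSeq, and the array files hold no probe sequence.
miR-31: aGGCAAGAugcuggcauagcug
miR-31*: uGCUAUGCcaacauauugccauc
Mir31 hairpin: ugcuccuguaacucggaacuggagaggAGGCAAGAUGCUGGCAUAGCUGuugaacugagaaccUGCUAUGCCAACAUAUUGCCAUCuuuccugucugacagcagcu
The hairpin of 106 bases lies at chr4:88910557-88910662 on the minus strand, with miR-31 at chr4:88910614-88910635 and miR-31* at chr4:88910577-88910599. RefSeq places it within the long non-coding RNA gene Gm49890, and whether it falls in an exon or an intron of that gene was not analysed here. miR-31 has 22 bases, of which 54.5% are G or C, and miR-31* has 23 bases, of which 43.5% are G or C. The longest run of miR-31 that is perfectly complementary to miR-31* has 9 bases. None of the 1736 other mature mouse miRNAs in RefSeq had the seed of either strand. The longest run of bases that miR-31 shared with another mature miRNA was 9, with miR-193a-5p, and for miR-31* it was 8.

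The array has a single colour and captures each miRNA on a probe, where it primes an extension that adds biotin for staining. Each miRNA had 8 spots and each spot 1 deposited intensity in arbitrary units. Spots with a value numbered 5313 and 5361 in the Junb-/- clones and 5167 and 5243 in the wild type clones, and their median intensities were 84.0 and 110.1 in the Junb-/- clones and 33.6 and 105.6 in the wild type clones. The array of wild type clone 1 was thus the dimmest. The 9 fibroblast and mesenchymal miRNAs listed as markers, among them miR-21 and miR-199a-3p, had median intensities from 570.4 to 19985 in the Junb-/- clones and from 980.1 to 12573 in the wild type clones. None of the 9 passed the test between the genotypes, where 1.41% of all 710 miRNAs did. Their log2 differences went both ways, from -1.36 for miR-143 to 1.13 for miR-199a-3p. The 7 epithelial markers had median intensities from 5.70 to 136.8 in the Junb-/- clones and from 7.00 to 52.0 in the wild type clones, and the blood, endothelial, neural, muscle, liver and pluripotent lists stayed at or below 314.4 in the Junb-/- clones and 312.0 in the wild type clones. None of these other markers passed the test either. The files give no detection call, so none of these values says that a miRNA was absent.

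miR-31 was lower in both Junb-/- clones at every spot that could be compared. Its 7 spots with a value had a lowest, median and highest intensity of 968.8, 1210 and 1568.5 in Junb-/- clone 1 and 118, 659.2 and 1063 in Junb-/- clone 2. In the wild type clones the same 3 values were 3146, 6286 and 7885 for clone 1 and 2899, 4914 and 8112 for clone 2. The brightest spot of either Junb-/- clone thus stayed below the dimmest spot of either wild type clone. Spots repeat the measure on 1 array per clone and add no clones. The share of all 710 miRNAs with such a separation of spots was not computed. The remaining spot of miR-31 had no value on any of the 4 arrays, as was the case for 319 of the 5680 spots.

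miR-31* was lower in both Junb-/- clones as well, but its spots behaved differently. Its 8 spots had a lowest, median and highest intensity of 23.2, 89.0 and 229.1 in Junb-/- clone 1 and 30.0, 476.4 and 952 in Junb-/- clone 2. In wild type clone 1 these values were 776.3, 988.6 and 1073, and in wild type clone 2 they were 949.6, 1007 and 1452. Over all spots the genotypes overlapped for this strand, since 2 spots of Junb-/- clone 2 exceeded the dimmest wild type spot. At each of the 8 spot positions taken alone, however, both Junb-/- values were below both wild type values. How many other miRNAs do so at all their positions was not computed, and this strand was chosen for the contrast. By clone level, 17.3% of all 710 miRNAs had both Junb-/- clones below both wild type clones.

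**Figure D1:**
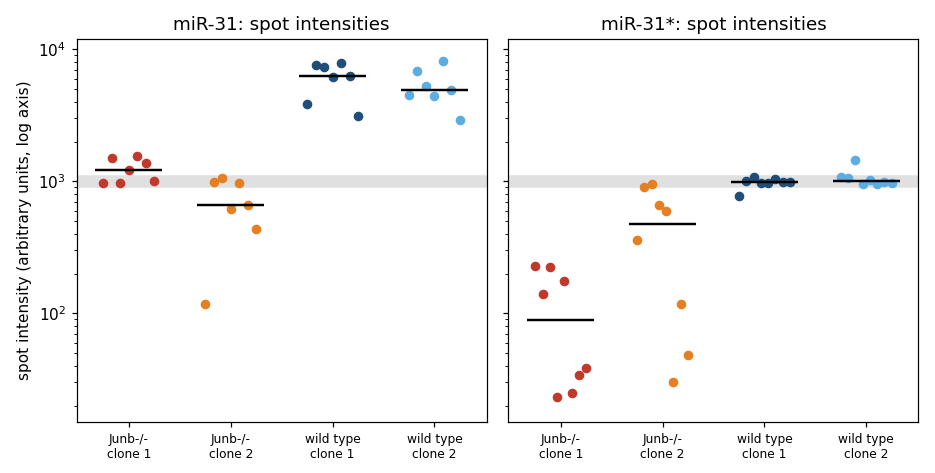
Spot intensities in arbitrary units on a log axis for miR-31 (left, 7 spots per clone) and miR-31* (right, 8 spots per clone) in 2 Junb-/- and 2 wild type clones, with spots in the order of the file, the median of each clone as a black line and the range from 900 to 1100 in grey. The wild type spots of miR-31* lie almost all in the grey band, while those of the Junb-/- clones spread from 23.2 to 952.

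For the comparison of levels, spot values of log2(intensity + 50) underwent quantile normalization across arrays, and the mean was taken for each miRNA. A difference on this scale understates the change of a dim miRNA, which touches miR-31* in the Junb-/- clones. In Junb-/- clone 1, 4 of its 8 spots were below the offset itself, and in Junb-/- clone 2 those of 30 and 48 were. The normalized log2 level of miR-31 was 10.45 and 9.01 in Junb-/- clones 1 and 2 and 12.53 and 12.31 in wild type clones 1 and 2. This gave 9.73 ± 1.02 in Junb-/- MEFs and 12.42 ± 0.15 in wild type MEFs (SD, n = 2 clones each). The difference was -2.69, or 6.45-fold lower in Junb-/- MEFs. In order, the levels ran from Junb-/- clone 2 through Junb-/- clone 1 to wild type clones 2 and 1, and the last pair lay closer together than the spread of the Junb-/- clones.

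The normalized log2 level of miR-31* was 7.08 and 8.13 in Junb-/- clones 1 and 2 and 10.15 and 9.93 in wild type clones 1 and 2. This gave 7.61 ± 0.74 in Junb-/- MEFs and 10.04 ± 0.16 in wild type MEFs (SD, n = 2 clones each), a difference of -2.44, or 5.41-fold lower in Junb-/- MEFs. Here Junb-/- clone 1 was the lowest and Junb-/- clone 2 came next, so that the order of the Junb-/- clones was the opposite of that for miR-31. Both strands passed limma's threshold of an adjusted p of 0.05 in this comparison, which is how they had been chosen, and 1.41% of the 710 miRNAs passed it. For both strands the 2 Junb-/- clones lay below the 2 wild type clones, which held for 17.3% of all 710 miRNAs. Nothing is read from these shares, as the contrast selected the strands. Neither strand passed the threshold in the values normalized by the authors, with the median over spots, with unscaled arrays, with no offset or without either wild type clone.

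The size of both differences depended on which Junb-/- clone was used. For miR-31 the difference from the wild type mean was -1.97 with Junb-/- clone 1 alone and -3.41 with Junb-/- clone 2 alone. For miR-31* it was -2.96 with Junb-/- clone 1 alone and -1.91 with Junb-/- clone 2 alone. In the values normalized by the authors, miR-31 stood at 10.94 and 9.70 in the Junb-/- clones and at 14.07 and 12.56 in the wild type clones, and miR-31* at 7.39 and 9.24 in the Junb-/- clones and at 11.41 and 10.28 in the wild type clones. On that scale the differences were -2.99 and -2.53, and for miR-31 the 2 clones of a genotype were 1.23 apart in Junb-/- and 1.52 apart in wild type MEFs.

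The balance of the strands was alike in the wild type clones and far apart in the Junb-/- clones. The signals of 2 probes cannot be read as numbers of molecules, so the ratio of the strands has a meaning only between clones. miR-31 minus miR-31* was 3.37 and 0.88 on the normalized log2 scale in Junb-/- clones 1 and 2, against 2.37 and 2.38 in wild type clones 1 and 2. As ratios these were 10.3 and 1.84 in the Junb-/- clones and 5.17 and 5.21 in the wild type clones. One Junb-/- clone therefore lay above both wild type clones and the other below both. The ratio of the median intensities without any normalization likewise had Junb-/- clone 1 highest and Junb-/- clone 2 lowest, with 13.6 and 1.38 in the Junb-/- clones and 6.36 and 4.88 in the wild type clones.

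The mean strand difference was 2.12 ± 1.76 in Junb-/- MEFs and 2.38 ± 0.01 in wild type MEFs (SD, n = 2 clones each). The change of -0.25 between the genotypes was much smaller than the spread of the Junb-/- clones, and with Junb-/- clone 1 left out it stood at -1.50, with Junb-/- clone 2 left out at 0.99. A shift of the strand balance in either direction is therefore not shown by these arrays.

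The spread between the Junb-/- clones can be set beside that of the other hairpins. In all, 181 hairpins were measured with both strands. The strand difference of miR-31 was lower by 2.49 in Junb-/- clone 2 than in clone 1, where the median absolute difference over the 181 hairpins was 0.50. None of the other 180 hairpins had a difference as large between these clones, the next being that of miR-434 with 2.00. Between the wild type clones it was 0.01 for the miR-31 hairpin, against a median absolute difference of 0.61, and 178 of the other 180 hairpins had one as large or larger. The place of the miR-31 hairpin at the end of the range in the Junb-/- clones depended on the processing, since 6 other hairpins had a difference as large in the values normalized by the authors. So did its place in the wild type clones, where in those values the difference was -0.38 and 138 of the other 180 hairpins had one as large or larger. Dim hairpins are among the 181, and the offset compresses their differences, which limits these comparisons. The mean level over strands and genotypes was 9.95 for the miR-31 hairpin and 7.17 for that of miR-434. Taken strand by strand, Junb-/- clone 2 minus clone 1 was -1.44 for miR-31 and 1.05 for miR-31*, with a median absolute difference of 0.34 over the 710 miRNAs. Only 4 of the 710, miR-31 among them, differed as much as miR-31 between these clones.

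**Figure D2:**
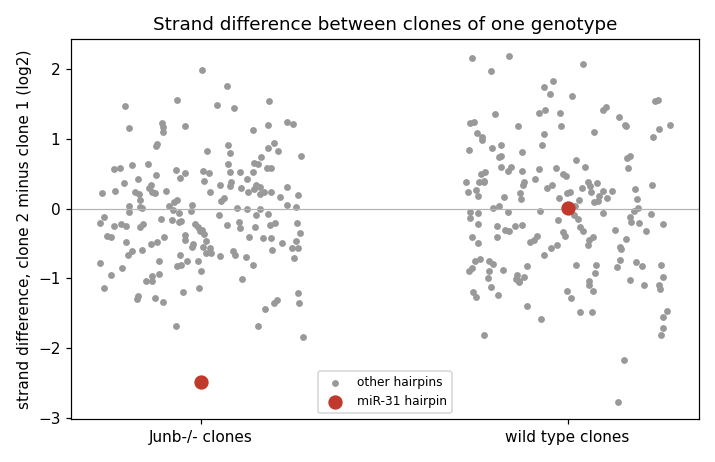
Strand difference (log2 level of the first strand minus that of the second) in clone 2 minus that in clone 1, for the 181 hairpins measured with both strands, between the Junb-/- clones (left) and between the wild type clones (right), with points spread sideways for clarity. The miR-31 hairpin, in red, is the lowest point among the Junb-/- clones at -2.49 and lies at 0.01 among the wild type clones.

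Spot values of miR-31* give a closer view of these clones. In Junb-/- clone 1 the 8 spots fell into 2 sets, with intensities from 139.5 to 229.1 at positions 1, 2, 3 and 5 in the order of the file and from 23.2 to 38.4 at the other 4. In Junb-/- clone 2 the same first set ran from 361.6 to 952 and the other from 30.0 to 657. These ranges overlapped in Junb-/- clone 2. In wild type clone 1 the sets ran from 776.3 to 1073 and from 969 to 1047 and overlapped as well. In wild type clone 2 they ran from 1020 to 1452 and from 949.6 to 993.3, so that the first set was again the higher, with mean normalized log2 values of 10.12 and 9.74, against 7.77 and 6.39 in Junb-/- clone 1 and 9.09 and 7.17 in Junb-/- clone 2. The sets were chosen after their values were seen.

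In the Junb-/- clones the spots around them in the file differed on average in the same direction, by less than the sets themselves. Each spot was compared with the mean of its own miRNA on its array, and the median of this deviation was taken over the 50 spots before and the 50 spots after. Around the first set of miR-31* spots this median averaged -0.18 in Junb-/- clone 1 and 0.36 in Junb-/- clone 2, and around the other set it averaged -0.50 in Junb-/- clone 1 and -0.32 in Junb-/- clone 2, on the log2 scale. In the wild type clones it averaged -0.21 and -0.06 around the first set and -0.20 and -0.10 around the other. Spot by spot, its ranges overlapped in Junb-/- clone 1, from -0.45 to -0.03 around the first set and from -0.63 to -0.35 around the other. They were apart in Junb-/- clone 2 and overlapped in both wild type clones. With these surroundings removed, the strand difference was 3.05 and 1.17 in the Junb-/- clones and 2.18 and 2.28 in the wild type clones, and 1 other hairpin differed as much between the Junb-/- clones as that of miR-31. The part of the surroundings in the split itself was not tested, and the files do not say how their order maps to the surface of the array.

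The spread over spots went with these values. For miR-31* the SD over spots on the normalized log2 scale was 0.76 and 1.39 in the Junb-/- clones and 0.13 and 0.26 in the wild type clones. The median of this SD over all 710 miRNAs was 0.99 and 0.87 on the arrays of the Junb-/- clones and 0.92 and 0.66 on those of the wild type clones. For miR-31 it was 0.35 and 1.02 in the Junb-/- clones and 0.47 and 0.49 in the wild type clones. The value of 1.02 in Junb-/- clone 2 includes the spot of 118, while the next dimmest spot had 434.6.

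The even wild type spots of miR-31* lay in a range in which spots of all 4 arrays were crowded. From an intensity of 900 to under 1100 there were 165 and 353 spots on the arrays of Junb-/- clones 1 and 2 and 138 and 363 on those of wild type clones 1 and 2. In the range of the same width above it, to under 1300, there were 61 and 54 spots in the Junb-/- clones and 49 and 71 in the wild type clones. In the range of the same width below it, from 700, there were 158 and 261 in the Junb-/- clones and 96 and 272 in the wild type clones. The number of spots thus rose towards 1000 and dropped just above it on each array. These bounds were set after the values were seen.

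Of the miR-31* spots, 2 of 16 in the Junb-/- clones and 14 of 16 in the wild type clones lay between 900 and 1100. miR-31* was the only one of the 710 miRNAs with at least 6 spots in this range in both wild type clones. In wild type clone 1 it was the only such miRNA at all, while wild type clone 2 had 13. As the range was set after the values were seen, this place of miR-31* is a description. Of the miR-31 spots with a value, 6 of 14 in the Junb-/- clones and 0 of 14 in the wild type clones lay in it. Each strand therefore had many spots in the crowded range in 1 genotype only, miR-31* in wild type and miR-31 in Junb-/- MEFs. How the images were turned into intensities was not stated in the sources used here, and the part of the crowding in the levels and in the strand ratio was not tested.

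**Figure D3:**
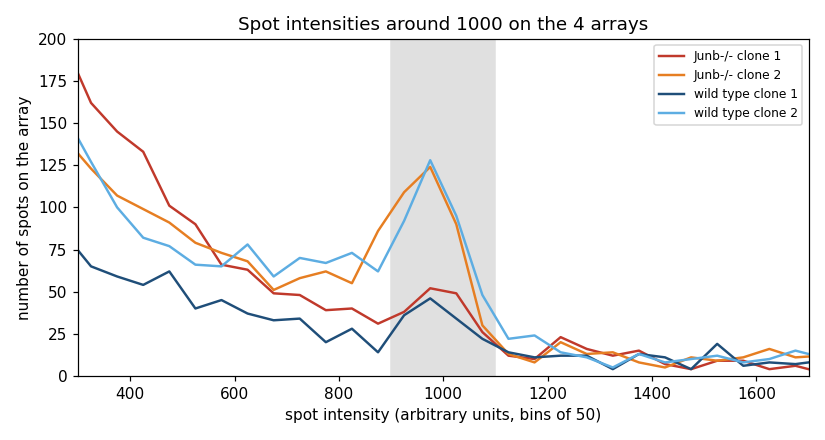
Number of spots in intensity bins of 50 (arbitrary units) on the arrays of 2 Junb-/- clones and 2 wild type clones, with the range from 900 to 1100 in grey. All 4 arrays have a local peak in this range, highest for Junb-/- clone 2 and wild type clone 2, and few spots just above it.

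Among hairpins measured with both strands, that of miR-31 was lower in Junb-/- MEFs through both arms. It was the only one of 181 hairpins of which both strands passed the threshold, while 3 others passed with 1 strand. These calls of the miR-31 strands ended under the settings named above, the values normalized by the authors among them. It was also the only one of which both strands differed by -1 or lower. By the higher of the 2 differences, the next was miR-666-5p and miR-666-3p with -1.14 and -0.78, and 1 hairpin, that of miR-199b, a miRNA of mesenchymal cells, was higher by at least 1 through both strands, with 1.03 for miR-199b and 1.15 for miR-199b* and without passing the test (adjusted p = 0.296 and 0.184 from limma). The levels of miR-199b were 11.7 and 12.2 in the Junb-/- clones and 10.7 and 11.2 in the wild type clones. Those of miR-199a-3p were close to them, with 11.8 and 12.2, and 10.7 and 11.1. Whether the probes tell miR-199b from miR-199a-3p was not analysed. Over the 181 hairpins the strands had the same sign in 54.1% of cases. These include hairpins with strands near the offset, where the sign of a small difference says little. As the miR-31 strands were chosen for this contrast, their place among the hairpins is a description. miR-434, miR-666 and miR-199b were named after their values had been seen.

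**Figure D4:**
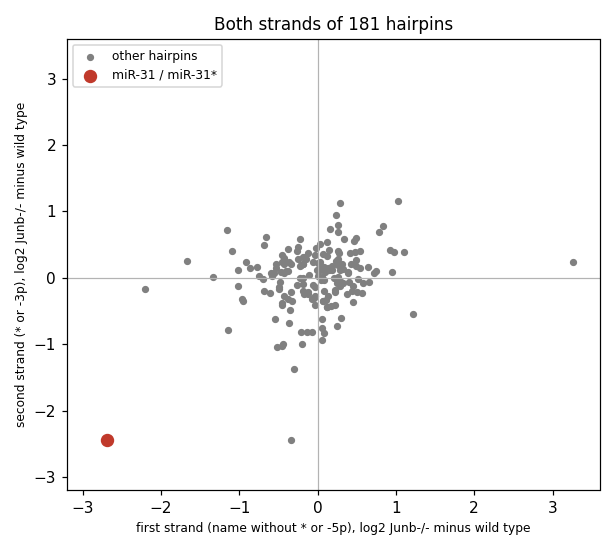
Difference of Junb-/- minus wild type MEFs in normalized log2 level for the 2 strands of 181 hairpins, with the first strand (5p or without a star) on the horizontal axis and the second (3p or star) on the vertical axis. The miR-31 hairpin, in red at -2.69 and -2.44, lies apart from the other hairpins at the lower left.

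The miRNAs with the pattern most like that of miR-31 were sought by the Euclidean distance between profiles over the 4 arrays, each profile being the normalized log2 levels minus their own mean. The closest of 709 were miR-129-3p, best known from neurons, at a distance of 0.66, miR-379 of the imprinted Dlk1-Dio3 region at 1.21, miR-182 at 1.35, miR-18a of the miR-17-92 cluster at 1.57 and miR-31* at 1.78. The median distance was 2.95. The genotype contrast that chose miR-31 weighs heavily in this distance, so close profiles belong by construction to miRNAs lower in the Junb-/- clones. The order of likeness is therefore a description. miR-129-3p had levels of 7.35 and 6.70 in the Junb-/- clones and 9.76 and 9.18 in the wild type clones, and so shared with miR-31 the lower value in Junb-/- clone 2. miR-379 shared it too, with 7.22 and 6.20 in the Junb-/- clones. Its wild type clones, with 8.47 and 9.87, lay further apart than those of miR-31. In miR-182, with 6.75 and 6.96, and in miR-18a, with 7.06 and 7.14, Junb-/- clone 2 was slightly above Junb-/- clone 1, and in miR-31* it was above it by 1.05.

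Genes next to Mir31 on chromosome 4 were read in the order of the RefSeq table of GRCm38, and distances between them were not computed. The nearest protein-coding genes are Ifne, an interferon gene, on one side and Mtap, an enzyme of methionine salvage, followed by the cell cycle inhibitor genes Cdkn2a and Cdkn2b, on the other. Of the 3 nearest miRNA genes on each side, Mir491, Mir455, Mir872 and Mir101a were on the array with 7 strands in all, while Mir3095 and Mir6402 were not matched to an array name. None of the 7 strands passed limma's test, where 1.41% of all miRNAs did. Their log2 differences ran from -0.45 to 0.24 with a median of -0.27, beside a median of 0.04 over all 710 miRNAs. Median intensities of miR-455*, miR-872, miR-872* and miR-101a* ran from 6.0 to 64.8 over the clones of both genotypes, near or below the offset of 50. A drop in these strands would be compressed, so their small differences do not show that their levels were unchanged.

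The gene of miR-491 is the next miRNA gene on its side of Mir31 in this order. Normalized log2 levels of miR-491 were 6.27 and 6.80 in the Junb-/- clones and 6.72 and 6.56 in the wild type clones. The difference was -0.11 (adjusted p = 0.941 from limma). The genotypes overlapped for this miRNA. miR-101a, which lies on the other side and is known to act on the Polycomb gene Ezh2, had levels of 7.34 and 8.27 in the Junb-/- clones and 7.84 and 8.66 in the wild type clones, a difference of -0.45 (adjusted p = 0.794 from limma). Median intensities of miR-491 were 12.5 and 97.3 in the Junb-/- clones and 21.6 and 65.2 in the wild type clones, near the offset of 50, so that a difference in it would be compressed.

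**Figure D5:**
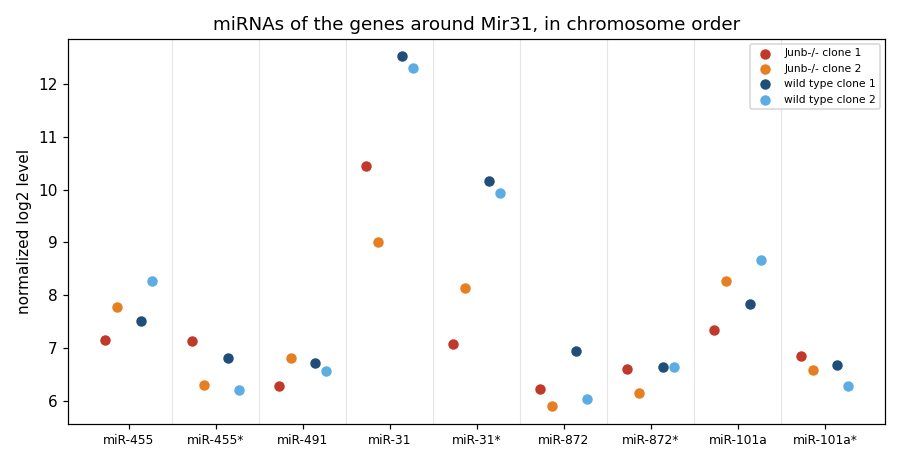
Normalized log2 level in 2 Junb-/- clones and 2 wild type clones (1 point per clone) for the measured miRNAs of the genes around Mir31, in chromosome order from left to right. Among the strands shown, only those of miR-31 have both Junb-/- clones more than 1 log2 unit below both wild type clones. They were chosen for this contrast, and several of the other strands lie near the offset of 50, so this is a description. Levels of different probes cannot be set against each other.

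Of 6 miRNAs reported, like miR-31, to act on Prox1, 1 was higher in Junb-/- MEFs, where 0.563% of all miRNAs were, and none was lower, where 0.845% of all miRNAs were. Their median log2 difference was 0.24, beside 0.04 over all 710 miRNAs. miR-181a was higher, with 8.19 and 8.79 in the Junb-/- clones and 6.56 and 7.00 in the wild type clones (log2 difference 1.71, adjusted p = 0.0352 from limma). miR-181b, which has the same seed family, had a log2 difference of 1.44 and did not pass (adjusted p = 0.0620). The 4 listed arms of miR-466 had log2 differences from 0.08 to 0.27. miR-31, with -2.69, thus differed in direction from miR-181a among the miRNAs reported to act on Prox1. The call of miR-181a ended, with those of all other miRNAs, when either wild type clone was left out, and likewise without the offset, without normalization or with the median over spots.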

How the data were processed

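Deposited by the authors were 5680 linear spot intensities per array (8 for every one of the 710 miRNAs), without background, flags or controls, and 1 log2 value per miRNA and array that they had normalized by a method that the sources used here do not state, nor do they state the scanner software or any background subtraction. The study's complete description of the array procedure was not read here. Spot values were taken as log2(intensity + 50), brought to common quantiles across the 4 arrays and summarised by their mean per miRNA. The planned normexp correction needs a background value, so the offset alone was used. Junb-/- minus wild type was fitted for all 710 miRNAs with limma 3.58.1 in R 4.3.3 (lmFit and eBayes, two-sided, Benjamini-Hochberg over all miRNAs, adjusted p under 0.05). The fit was also run on simulated data with a common spread for all miRNAs and many large changes. Such data differ from these arrays, so that run does not vouch for the calls made here. Summaries and plots used Python 3.11.15 and matplotlib 3.10.9. The members and lists were chosen with earlier results of these data known. Named miRNAs were both strands, the 5 with the closest profile, those of the 3 nearest miRNA genes on each side, hairpins with both strands past the threshold and up to 4 of each list by p. A further list is not reported here. With 4 arrays the precision is limited. Alternatives covered the offset, the scaling, the spot summary, spots or dim miRNAs left out, limma's settings, the clone number as a block, each clone left out in turn and the removal of the file-order surroundings, the last of which was chosen after seeing the data. Zebrafish and Taqman measurements were not analysed here.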

Additional observations from a re-analysis of the deposited data

How the results depend on the processing

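miR-31 and miR-31* were lower in Junb-/- MEFs under all 17 alternatives. The difference of miR-31 ran from -3.02 to -2.50 with all clones and from -3.41 to -1.97 with a clone left out, and that of miR-31* from -3.08, without the offset, to -2.26 with all clones and from -2.96 to -1.91 with a clone left out. The change of the strand difference ran from -0.46 to 0.30 with all clones and from -1.50 to 0.99 with a clone left out, so its sign is not settled. Counts of miRNAs higher and lower by limma, 4 and 6, were 0 and 0 without the offset (28 and 16 at an unadjusted p under 0.05), without normalization (24 and 7) and with the median over spots (38 and 37). Scaling to the 75th percentile gave 2 and 6, scaling to the median gave 3 and 10, and cyclic loess gave 9 and 18. With the deposited normalized values they were 2 and 2. Leaving out the dimmest 25% of miRNAs gave 7 and 8, trend and robust settings in limma 8 and 9, and removing the surroundings 5 and 6. The cause of these shifts was not tested. With a clone left out they ran from 0 to 5 and from 0 to 7. Both were 0 without wild type clone 1 (26 and 45 at an unadjusted p under 0.05) and without wild type clone 2 (35 and 27), and 2 and 7 without Junb-/- clone 2. In these fits the lone clone is assumed to vary like the other genotype.

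With the clone number as a replicate block the counts were 6 and 10. The study speaks of clone pairs, but what joins same-numbered clones is not stated in the labels, so they were fitted as unpaired. Clone 2 minus clone 1 correlated at 0.31 between the genotypes across miRNAs, which 2 pairs do not settle.

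Without negative controls, values near the offset of 50, such as those of miR-31* in Junb-/- clone 1, have no known distance from background.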
